A study of Drosophila simulans and Drosophila melanogaster and Drosophila sechellia with 48 samples.

Results

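The genes of the circadian clock were examined in whole adult males of 7 species of the D. melanogaster subgroup. The 9 genes were per, tim, Clk, cyc, vri, Pdp1, cry, Pdf and dco, chosen by gene symbol, and all 9 had a probe set, out of 10844 genes named on the array and 12367 features tested. Together they had 11 probe sets, since tim had 3 and each other gene had 1, and the brightest probe set stood for tim. RNA pooled from several males per sample, 3 days after pupation, was hybridised to 48 Affymetrix arrays, with 3 arrays for each of 16 groups. The sister species D. yakuba and D. santomea, their relative D. teissieri, and the island species D. sechellia and D. mauritiana were each a single line, so line and species coincide for them. D. melanogaster was an even mixture of 10 isogenic lines crossed in a round robin, and D. simulans was 10 separate round-robin crosses (6x11, 11x36, 36x37, 37x43, 43x61, 61x77, 77x85, 85x99, 99x105 and 105x6), in which neighbouring crosses share a parental line. The labels give no mutation and no treatment for any group, and the flies were raised on cornmeal medium at 25 C under what the labels call a continuous light cycle, and knocked down with CO2. Whether that regime had a dark phase, and the hour of collection, are not given in the sources used here. The arrays of D. melanogaster and D. simulans came from an earlier collection than those of the other 5 species.

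In D. melanogaster the clock is a feedback loop of transcription. The proteins CLK and CYC form a dimer that activates per, tim, vri and Pdp1, and the PER and TIM proteins return to the nucleus to repress CLK and CYC, with the kinase DCO (Doubletime) controlling the stability of PER. VRI represses and PDP1 activates transcription of Clk, CRY is a blue-light receptor that sends TIM to degradation, and PDF is the neuropeptide by which the clock neurons of the brain signal to each other. Under light and dark cycles the transcripts of per, tim and vri peak in the early night and those of Clk and cry near dawn, in head neurons, photoreceptors and peripheral organs alike, whereas cyc and dco transcripts cycle little or not at all.

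A log2 signal is given throughout, on a scale where 1 unit is a doubling. Array medians spanned 0.696 before they were normalised. A typical feature had a replicate SD of 0.75 and a range of 2.03 over the 7 species means, and the mean signal of 8 clock genes lay above that of at least 61.2% of features, while Clk lay above 40.7%. In whole animals fewer cells of a type and less RNA per cell cannot be told apart. The probes were designed on D. melanogaster and no probe was masked, so a difference in signal between species, in either direction, and a difference in how their sequences match the probes cannot be told apart either. The 13 measured female markers (yolk and eggshell genes) marked a pair of arrays that go against their label of males. Their mean was 11.94 in D. sechellia replicate 1 and 11.70 in D. simulans cross 37x43 replicate 3, against 6.54 to 8.91 on the other 46 arrays, and their summed signal was 187990 and 171570 against 1696 to 13937. The 5 measured photoreceptor markers averaged 10.45 to 12.79, and the 9 testis markers 9.40 to 12.11. The testis mean was 11.84 to 12.11 in D. melanogaster and 9.40 to 9.85 in D. mauritiana. Both arrays with high female markers had the lowest testis mean of their species, 9.42 in D. sechellia (median 10.17) and 10.04 in D. simulans (median 11.17). Of the 9 testis markers 7 differed among species, as did all 5 photoreceptor markers, with 66.0% of all features called (limma F-test).

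All 9 clock genes differed among the 7 species (limma F-test, adjusted p of 4.23e-12 for tim to 0.0186 for Pdf), but so did 66.0% of all features. The median F was 7.29 over the 9 genes and 3.86 over all features. The widest range of species means was that of tim, 4.38 on the log2 scale, followed by vri at 2.92, Clk at 2.88 and Pdp1 at 2.80. The ranges of per (1.997), Pdf (1.91), cyc (1.81), cry (1.38) and dco (1.32) were narrower than that of the typical feature. Over the 21 pairs of species, which share arrays, 73 of 189 combinations of a clock gene and a pair passed (38.6%), against 21.6% over all features. Of the 73, 35 lost the call when some single array was left out, among them 6 of 8 for cyc, 6 of 9 for dco, 5 of 13 for tim, 3 of 14 for Pdp1 and 0 of 6 for vri. Over the 5 species of the later collection alone, tim, Clk, Pdp1 and dco passed the same test, 4 of 9 genes against 43.5% of all features. The other 5 genes did not (adjusted p of 0.599 for vri, 0.179 for per, 0.0852 for cry, 0.0681 for Pdf and 0.0595 for cyc, limma).

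**Figure D1:**
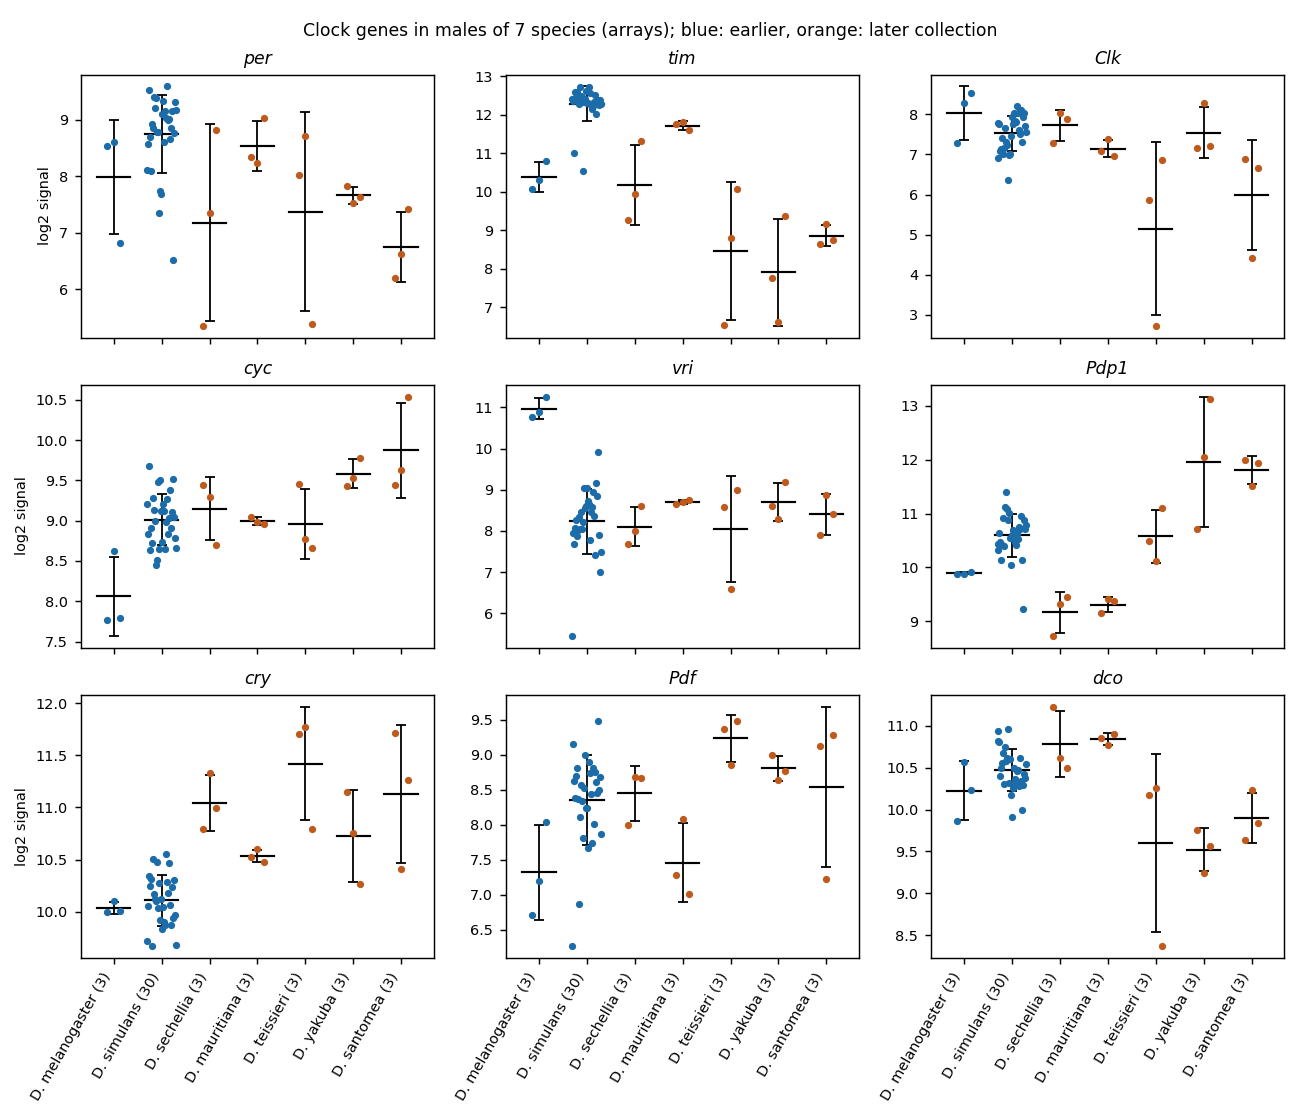
Log2 signal (vertical axis) of each clock gene on every array, by species, with the number of arrays in brackets; horizontal lines are means and bars are SDs. The D. melanogaster arrays of vri stand alone near 11, and the Pdp1 arrays of D. yakuba and D. santomea lie above those of D. sechellia and D. mauritiana.

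The repressor gene tim showed the widest differences. Its signal in D. simulans ran from 10.55 to 12.72 with a median of 12.38 over 30 arrays. The 3 arrays gave 11.76, 11.81 and 11.60 in D. mauritiana, 10.06, 10.30 and 10.80 in D. melanogaster, and 9.27, 9.95 and 11.31 in D. sechellia. In the yakuba complex they gave 8.65, 9.17 and 8.75 in D. santomea, 6.53, 8.81 and 10.06 in D. teissieri, and 7.76, 6.60 and 9.37 in D. yakuba. Every array of D. santomea and D. yakuba, but not of D. teissieri, was thus below all arrays of the other 4 species except D. sechellia replicate 1. Of the 21 pairs of species 13 differed in tim, yet none of the 6 neighbours in the order of means (D. simulans, D. mauritiana, D. melanogaster, D. sechellia, D. santomea, D. teissieri, D. yakuba) did. Without D. teissieri replicate 1 that species no longer passed against D. melanogaster (0.95, adjusted p = 0.203) or D. sechellia (0.74, adjusted p = 0.369, limma), and 3 more pairs lost the call without some other array.

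The other probe sets of tim did not give the same picture. Probe set 151485_s_at averaged 9.57 ± 0.43 in D. melanogaster (SD, n = 3) and 9.36 ± 0.38 in D. simulans (SD, n = 30), a difference of −0.22 (SE 0.51, adjusted p = 0.818, limma), where the brightest probe set, 142154_at, gave 1.91. Its means in the 5 later species were 6.81 to 7.99, and the difference of the yakuba complex from D. sechellia and D. mauritiana was −0.57 (SE 0.45, adjusted p = 0.321), where the brightest gave −2.54. It still differed among the 7 species (F = 9.45, adjusted p = 1.68e-05). The third, 151484_i_at, was dim, with species means of 2.79 to 6.44 and no difference past the threshold (F = 1.03, adjusted p = 0.455). The order of species in tim therefore rests on 1 of 3 probe sets, and the cause of the disagreement was not tested.

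**Figure D2:**
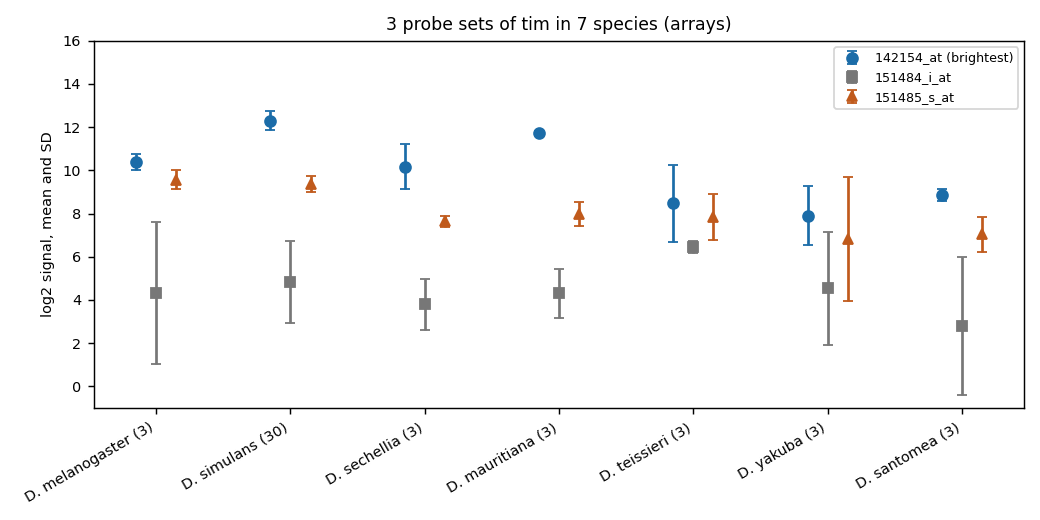
Mean log2 signal of the 3 probe sets of tim in each species (vertical axis; bars are SDs over the number of arrays in brackets). The brightest probe set is higher in D. simulans than in D. melanogaster, while 151485_s_at has means of 9.36 and 9.57 there.

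The partner of tim, per, varied more among replicate arrays (pooled SD 0.83) than among species means (SD 0.72). D. simulans ran from 6.53 to 9.59 with a median of 8.90, D. mauritiana gave 8.34, 8.24 and 9.04, and D. melanogaster gave 8.54, 8.61 and 6.83. The arrays were 7.83, 7.53 and 7.63 in D. yakuba, 8.03, 8.71 and 5.38 in D. teissieri, 5.36, 7.35 and 8.83 in D. sechellia, and 6.20, 6.64 and 7.43 in D. santomea. All species overlapped with D. simulans, and single low arrays in D. sechellia and D. teissieri stretched their ranges. D. simulans was higher in per than D. santomea (by 1.997, adjusted p = 0.00148), D. sechellia (1.57, adjusted p = 0.0318) and D. teissieri (1.38, adjusted p = 0.0275), each a comparison across collections. Without D. sechellia replicate 1, the array with female markers, the D. sechellia difference was −0.66 (adjusted p = 0.616), and without D. teissieri replicate 3 that of D. teissieri was −0.38 (adjusted p = 0.633), both as species minus D. simulans. D. mauritiana was higher than D. santomea by 1.78 (adjusted p = 0.0476, all limma), a call that was lost without any of 5 of the 6 arrays, and the other 17 pairs did not pass.

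The activator gene Clk was highest in D. melanogaster (7.28, 8.29 and 8.53) and lowest in D. teissieri (5.86, 2.73 and 6.86). D. santomea gave 6.89, 4.42 and 6.67, and D. yakuba gave 7.15, 8.28 and 7.20, so the arrays of these sister species did not overlap (12.4% of features did not), although their difference of −1.55 did not pass (95% interval −2.75 to −0.36, adjusted p = 0.12). D. sechellia gave 7.29, 8.03 and 7.88, D. mauritiana 7.08, 7.38 and 6.97, and D. simulans 6.37 to 8.20 with a median of 7.60. The arrays of D. melanogaster overlapped with those of D. sechellia, D. yakuba, D. mauritiana and D. simulans, and the low means of D. teissieri and D. santomea each leaned on 1 array, replicate 2 of each. All 8 pairs of species that differed in Clk involved D. teissieri or D. santomea, and 5 of them lost the call without replicate 2 of the one or the other.

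Its dimer partner cyc was lowest in D. melanogaster, with 7.77, 8.62 and 7.79, and highest in D. santomea, with 9.45, 9.63 and 10.54. The remaining species lay between them, with means of 8.96 in D. teissieri, 8.99 in D. mauritiana, 9.01 in D. simulans, 9.15 in D. sechellia and 9.58 in D. yakuba. D. melanogaster was lower than each of the other 6 species, by 0.90 to 1.81 (adjusted p of 3.45e-05 to 0.0404, limma), and 6 of the 8 pairs called for cyc were these. All but 1 of these set the earlier collection against the later, and the one within the earlier collection, with D. simulans, is described below. The call with D. mauritiana was lost without any of 5 of the 6 arrays. Those with D. sechellia and D. teissieri were lost without any of 4 and 3 of 6, and that with D. simulans without 2 of 33. Without both arrays of high female markers, D. melanogaster minus D. sechellia was −0.94 (adjusted p = 0.0681, limma). The replicate SD of cyc, 0.36, was less than that of the typical feature.

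D. melanogaster stood apart in vri, the repressor of Clk. Its signal in D. melanogaster was 10.76, 10.89 and 11.26, and on the 45 arrays of other species it was 5.46 to 9.91, so no other array overlapped with D. melanogaster. Against the D. simulans arrays alone 8.23% of features did not overlap, and the share against all 45 arrays was not counted. D. simulans had a median of 8.30, and the means of the later species ran from 8.05 in D. teissieri to 8.70 in D. mauritiana. All 6 pairs that differed in vri set D. melanogaster against another species, by 2.27 to 2.92, and the other 15 pairs did not pass. Of the 6, only the pair with D. simulans lies within a collection.

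The activator of Clk, Pdp1, was highest in the sister species D. yakuba and D. santomea. D. yakuba gave 10.71, 12.06 and 13.13, D. santomea 11.995, 11.52 and 11.94, and D. teissieri 10.50, 10.13 and 11.11. D. simulans ran from 9.23 to 11.41 with a median of 10.62, D. melanogaster gave 9.89, 9.88 and 9.92, D. mauritiana 9.15, 9.41 and 9.37, and D. sechellia 8.74, 9.33 and 9.45. D. sechellia and D. mauritiana lay below all arrays of the yakuba complex, a comparison in which 8.71% of features did not overlap. They also lay below all arrays of D. melanogaster, where that share was not counted. D. melanogaster did not pass against D. sechellia (0.73, adjusted p = 0.202) or D. mauritiana (0.58, adjusted p = 0.319, limma). D. teissieri did not pass against D. simulans (−0.02, adjusted p = 0.964) or D. melanogaster (adjusted p = 0.17, limma). Pdp1 differed in 14 of the 21 pairs, the most of the 9 genes, and D. santomea and D. simulans differed as neighbours in the order of means (1.22, adjusted p = 8.47e-04, limma).

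The light receptor cry had its lowest species means in the earlier collection. D. melanogaster gave 10.00, 10.11 and 10.01 and D. simulans 9.68 to 10.55 with a median of 10.12, against 10.27 to 11.77 on the 15 later arrays. The highest means were 11.42 ± 0.55 in D. teissieri and 11.13 ± 0.66 in D. santomea (SD, n = 3 each). All but 1 of the 8 pairs called for cry crossed the collections, the exception being D. teissieri above D. mauritiana by 0.89 (adjusted p = 0.029, limma). That call was lost without any of 5 of the 6 arrays. Of the 8 calls, 5 were lost without some single array. Across the collections, D. melanogaster did not pass against D. mauritiana (adjusted p = 0.266) or D. yakuba (adjusted p = 0.0715). Nor did D. simulans pass against D. mauritiana (adjusted p = 0.237, limma). For cry, collection and species cannot be told apart in the 7 called pairs that crossed the collections.

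The neuropeptide gene Pdf, made in few neurons, had means from 7.32 ± 0.67 in D. melanogaster to 9.23 ± 0.33 in D. teissieri (SD, n = 3 each). Only 3 of its 21 pairs differed, D. teissieri above D. melanogaster (1.91, adjusted p = 0.00573) and D. mauritiana (1.77, adjusted p = 0.0156), and D. yakuba above D. melanogaster (1.48, adjusted p = 0.0309, limma). The call against D. mauritiana was lost without any of 3 of the 6 arrays, and that of D. yakuba without any of 4 of 6. The kinase gene dco had a replicate SD of 0.34 and was highest in D. mauritiana (10.85, 10.77 and 10.91) and D. sechellia (11.23, 10.62 and 10.50). It was lowest in D. yakuba (9.76, 9.24 and 9.57), with 10.17, 10.26 and 8.37 in D. teissieri and 9.64, 10.23 and 9.84 in D. santomea. Each of the 9 pairs called for dco set a species of the yakuba complex below D. sechellia, D. mauritiana or D. simulans, and the 3 with D. teissieri were lost without its replicate 3 (adjusted p of 0.0979 to 0.39, limma). Those with D. santomea were each lost without some array too, the one with D. simulans without any of 27 of 33.

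Comparisons within a collection are free of its difference. Between the earlier species, 3 of 9 clock genes differed, with 19.2% of all features called. Relative to D. melanogaster, D. simulans was higher in tim by 1.91 (SE 0.44, adjusted p = 0.0017) and in cyc by 0.95 (SE 0.24, adjusted p = 0.00389), and lower in vri, with a difference of −2.74 (SE 0.36, adjusted p = 9.16e-07, limma). Higher calls made up 10.1% of features and lower calls 9.10%. The arrays of the species overlapped for tim and cyc but not for vri, and 8.23% of features did not overlap. Beside tim, 2 photoreceptor markers were higher (trp by 0.86, trpl by 1.08) and Arr1 was lower (difference −0.91). Of the 9 testis markers 3 differed, all lower and with no overlap of arrays, betaTub85D by −3.23, dj by −2.59 and Mst98Cb by −2.08. The part of both lists in the result was not tested. For cry the difference was 0.07 (95% interval −0.37 to 0.52) and for Clk −0.51 (95% interval −1.40 to 0.38). Without D. melanogaster replicate 1 or 3, cyc missed the threshold (adjusted p up to 0.0618), and only the brightest probe set of tim gave a call.

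Between the yakuba complex and the pair D. sechellia and D. mauritiana, all of the later collection, 5 of 9 clock genes differed against 39.3% of features. The yakuba complex was lower in tim, with a difference of −2.54 (SE 0.38, adjusted p = 1.63e-06), in Clk, with −1.21 (SE 0.38, adjusted p = 0.0114), and in dco, with −1.14 (SE 0.20, adjusted p = 2.38e-05). It was higher in Pdp1 by 2.21 (SE 0.25, adjusted p = 5.53e-09) and in Pdf by 0.91 (SE 0.35, adjusted p = 0.0357, limma). Lower calls made up 21.0% of features and higher calls 18.4%, and the arrays did not overlap for Pdp1 and dco, as for 8.71% of features. The vri signal differed by −0.02 (95% interval −0.66 to 0.63) and that of cry by 0.30 (−0.09 to 0.69). Beside these values the photoreceptor marker trp differed by −3.15, trpl by −0.99 and Arr1 by 0.58. Of the testis markers 4 were higher (Mst84Db by 2.15, Mst87F by 1.68, Mst98Ca by 0.98 and Mst84Da by 0.63) and 2 lower (dj, −2.08, and betaTub85D, −1.46), and the part of both lists was not tested. The Pdf call was lost when any of 8 of the 15 arrays was left out (adjusted p up to 0.0964). With the 2 arrays of high female markers left out, per passed (−1.05, adjusted p = 0.0488), Pdf did not (0.79, adjusted p = 0.0974), and tim, Clk, Pdp1 and dco stayed past the threshold.

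**Figure D3:**
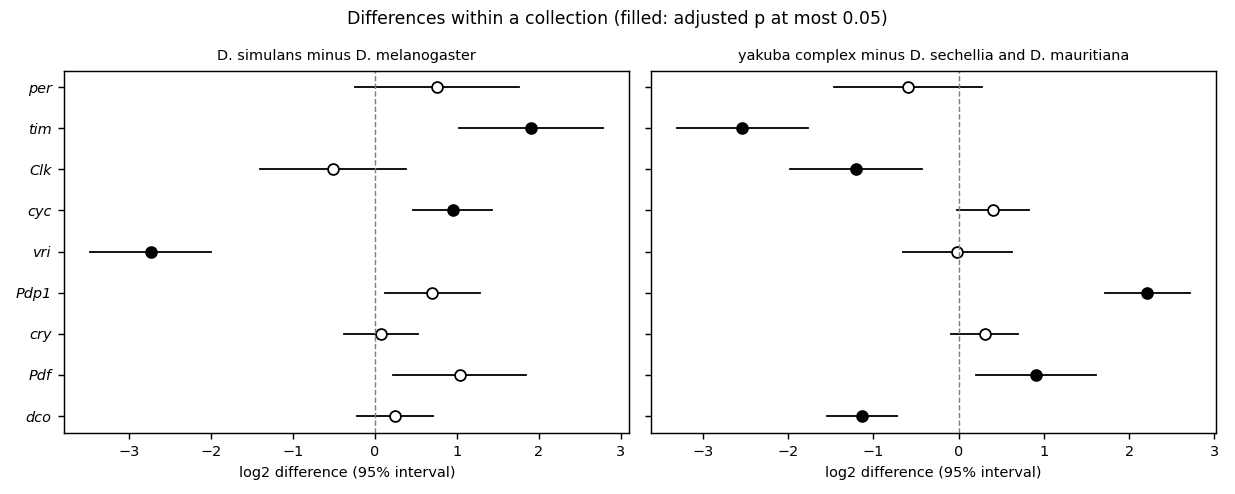
Log2 differences with 95% intervals (horizontal axis) for the 9 clock genes in a comparison within each collection; filled circles passed an adjusted p of 0.05. On the left tim and cyc lie above 0 and vri lies at −2.74, and on the right tim, Clk and dco lie below 0 and Pdp1 and Pdf above.

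Among close relatives fewer clock genes differed. D. teissieri was lower than D. yakuba and D. santomea in Clk, with a difference of −1.62 (SE 0.51, adjusted p = 0.0495), and in Pdp1, with −1.31 (SE 0.33, adjusted p = 0.0113, limma), 2 of 9 genes against 6.58% of features, 3.03% being called lower. Both calls were lost without D. teissieri replicate 2, where the Clk difference was −0.41 (adjusted p = 0.689) and that of Pdp1 −1.09 (adjusted p = 0.0981). With each of the 9 arrays left out in turn, the Clk call was kept 5 times and that of Pdp1 8 times. Clk also missed the threshold without both arrays of high female markers (adjusted p = 0.0508, limma). D. santomea and D. yakuba differed in 0 of 9 genes (5.05% of features), with the largest estimates in Clk (−1.55) and tim (0.95, 95% interval −0.24 to 2.14). D. sechellia and D. mauritiana also differed in 0 of 9 (5.26% of features). There tim was lower in D. sechellia with no overlap of arrays (−1.55, 95% interval −2.74 to −0.36, adjusted p = 0.138), and 30.8% of features did not overlap. The tim difference was −2.11 without D. sechellia replicate 3 (adjusted p = 0.0445) and −1.09 without both arrays of high female markers (adjusted p = 0.47, limma). Beside it the photoreceptor markers Arr2, trp and trpl differed by −1.99, −1.23 and −1.72, lower in D. sechellia. At an unadjusted p under 0.05 in limma, Clk passed between D. santomea and D. yakuba, and per and tim between D. sechellia and D. mauritiana. There the per difference was −1.36, and −0.45 without both arrays of high female markers (adjusted p = 0.912).

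The array of D. sechellia with female markers had the lowest tim and per of its species. Its tim signal was 9.27 against 9.95 and 11.31 on the other arrays of the species, per was 5.36 against 7.35 and 8.83, and dco was 11.23 against 10.62 and 10.50. On the corresponding D. simulans array tim was 10.55 against 12.45 and 12.49, Clk was 6.37 against 7.22 and 7.31, and cyc was 9.49 against 8.45 and 8.51. On both arrays per, tim, Clk, Pdp1, cry and Pdf were below and cyc and dco above the other arrays of their group. For per on the D. simulans array the gap was narrow, 8.787 against 8.795 and 9.393. The share of all features that lay outside the other arrays in the same direction on both was not counted. Whether the clock genes followed the female markers was not tested. Without these arrays all 9 genes still differed among species, and 3 still differed between D. simulans and D. melanogaster.

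Within D. simulans, 0 of 9 clock genes differed among the 10 crosses, with 0.558% of all features called (limma F-test). The smallest p was that of vri (F = 3.51, unadjusted p = 0.00332, adjusted p = 0.188), the only one of the 9 with an unadjusted p under 0.05, and those of the other 8 ran from 0.325 to 0.961. The vri signal was lowest in cross 6x11, with 5.46, 7.96 and 7.69, and in 105x6, with 7.89, 7.01 and 7.48, and highest in 99x105, with 9.16, 8.86 and 9.91. The 99x105 arrays did not overlap with those of 6x11 (13.5% of features did not) or 105x6 (15.6%). The labels give 105x6 a parental line in common with each of the other 2 crosses. The range of cross means was 2.28 for vri, 1.67 for per, 1.07 for Pdf and 1.02 for Pdp1, and 0.34 to 0.98 for the other 5 genes.

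Single crosses and arrays stood out in per and tim. In cross 43x61 per gave 7.36, 7.74 and 7.69, below every array of the other crosses except replicate 3 of 99x105 at 6.53. The share of features with such a cross was not counted, and per was not called among the crosses. Without both arrays of high female markers its F was 1.455 (adjusted p = 0.911, limma F-test). For tim, 28 of 30 arrays lay between 12.01 and 12.72, and the exceptions were replicate 3 of 6x11 at 11.01 and replicate 3 of 37x43 at 10.55. The second of these is the array with female markers, whereas the first had a female marker mean of 7.20, within the range of other males. The crosses that hold these arrays had the lowest tim means, 11.83 in 37x43 and 11.92 in 6x11, against 12.26 to 12.55 in the other 8.

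**Figure D4:**
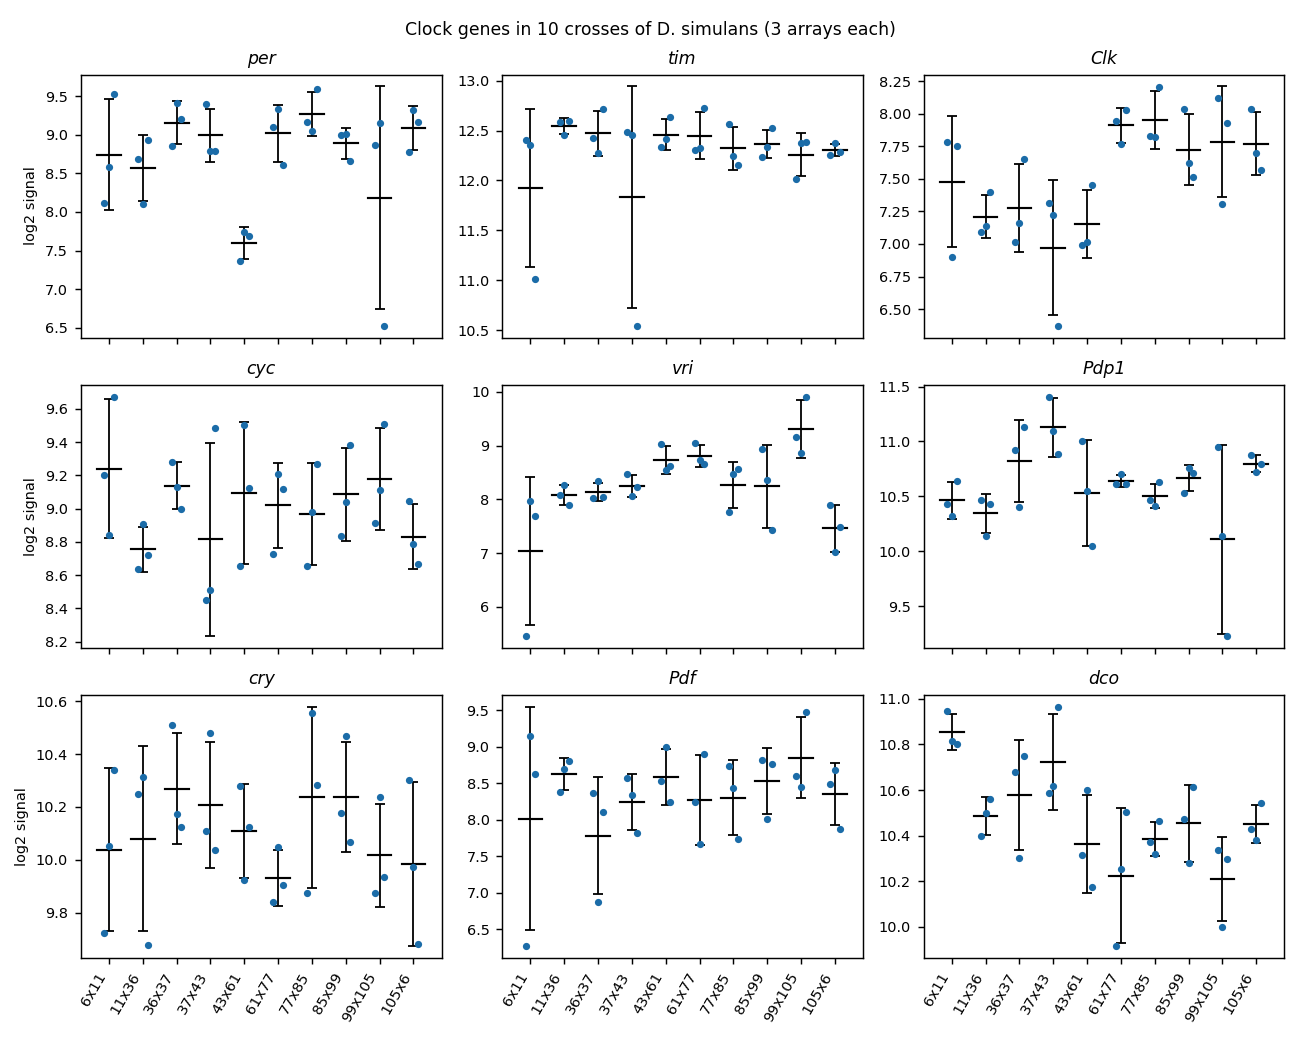
Log2 signal (vertical axis) of the 9 clock genes in each D. simulans cross; points are the 3 arrays, lines are means and bars are SDs. The vri arrays of 99x105 lie above those of 6x11 and 105x6, and per is low in all 3 arrays of 43x61.

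Under light and dark cycles, transcripts of per, tim and vri peak together and those of Clk and cry at the opposite time of day. The 10 pairs of these genes were therefore used as a check on sampling time among arrays of a group and among crosses. Whether the flies had a dark phase is not given, so these transcripts need not have cycled. Over the deviations of 48 arrays from their group means, 0 of 10 pairs passed (two-sided permutation within groups, adjusted p of 0.839 to 0.987). Such deviations hold no difference between groups. They cannot show whether the hour of collection differed between species or collections, which was not tested. The 6 pairs of opposite phase had Pearson r of −0.36 (tim and cry, rho = −0.32), −0.31 (per and Clk), −0.10 (vri and cry), 0.01 (tim and Clk), 0.28 (per and cry) and 0.31 (vri and Clk). The 4 pairs of the same phase had r of −0.13 (per and vri), −0.12 (per and tim), 0.02 (Clk and cry) and 0.08 (tim and vri). The most negative, tim and cry, had an unadjusted p of 0.132, and its r without the 2 arrays farthest in tim was −0.21. Spearman's rho gave no call either (adjusted p of 0.82 to 0.936). Within the earlier collection r of tim and cry was −0.12 over 33 arrays and within the later −0.49 over 15. For vri and cry the values were 0.39 and −0.59, of opposite sign.

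Over the 10 cross means of D. simulans no pair passed either (permutation test, adjusted p of 0.861 to 0.918). Here r was 0.33 for per and Clk, 0.25 for per and cry, and −0.42 for per and vri, and the last became 0.30 without the 2 crosses farthest in per. For tim and Clk r was 0.23, and −0.72 without the crosses farthest in tim, 37x43 and 6x11. An index made of the mean of per, tim and vri minus the mean of Clk and cry had a range of 0.21 to 1.25 over the 3 arrays of a cross. In D. simulans it ran from −0.09 to 1.41 over 30 arrays, and its lowest value was in cross 6x11. Over the 3 arrays of the other species its range was 0.48 in D. mauritiana, 0.79 in D. melanogaster, 1.75 in D. sechellia, 1.85 in D. teissieri, 2.04 in D. yakuba and 2.53 in D. santomea. Over the 7 species means, r was 0.77 for per and tim and −0.67 for tim and cry, but also −0.77 for Clk and cry and 0.46 for tim and Clk. These are descriptions, since the points share probe match and collection.

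**Figure D5:**
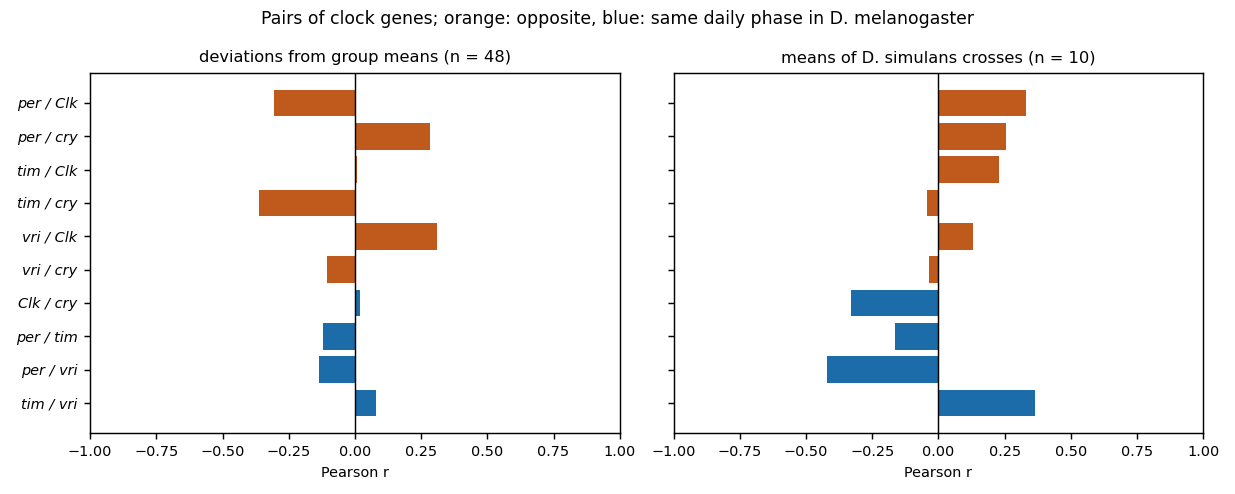
Pearson r (horizontal axis) for the 10 pairs among per, tim, vri, Clk and cry, over deviations of 48 arrays from their group means and over the means of 10 D. simulans crosses; orange marks pairs of opposite and blue of the same daily phase. Neither panel separates the colours, and no pair passed the permutation test.

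Other genes that act on the clock proteins were taken from a list of 23, of which 15 were measured. Of these, 13 of 15 differed among species and 0 of 15 among crosses (limma F-tests, 66.0% and 0.558% of all features). The smallest p among species were those of Atx2, a factor for the translation of per (F = 73.9, adjusted p = 2.63e-16), Pp1-87B, a catalytic subunit of protein phosphatase 1 (F = 34.3, adjusted p = 8.9e-12), and tyf, which acts with Atx2 on per (F = 13.0, adjusted p = 7.8e-07). Between the yakuba complex and D. sechellia with D. mauritiana, 9 of 15 differed (39.3% of features), 3 higher and 6 lower. Atx2 was higher there by 1.64 (SE 0.20), Pp1-87B differed by −3.82 (SE 0.37) and tyf by −2.62 (SE 0.44). Between D. simulans and D. melanogaster 6 of 15 differed (19.2% of features), 5 higher and 1 lower, tyf being higher by 1.44 (SE 0.50, adjusted p = 0.0384), while Atx2 differed by −0.07 (adjusted p = 0.878). D. santomea and D. yakuba differed in 2 of 15 (5.05% of features), in Atx2 by 1.73 (SE 0.31, adjusted p = 6.71e-04) and in slmb, the F-box protein that marks PER for degradation, by −2.10 (SE 0.62, adjusted p = 0.0395). In D. teissieri 1 of 15 differed (6.58% of features), the phosphatase subunit gene tws, and 0 of 15 between D. sechellia and D. mauritiana (5.26%). Among crosses the smallest unadjusted p were those of lark (0.0426), jet (0.137) and na (0.2).

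The genes whose pattern was most like that of a clock gene were sought among the 10843 other named genes. Over the 16 group means, of which 10 are crosses of a single species, the genes most like tim were crq, a scavenger receptor of macrophages (r = 0.98), mtsh (r = 0.97) and CG17237 (r = 0.97), whereas per ranked 813 of 10843 with r = 0.76. For per the closest were Pi4KIIalpha (r = 0.86), CG11291 (r = 0.84) and GstD9 (r = 0.84), and tim ranked 71. For Clk they were LManII, a lysosomal mannosidase (r = 0.93), CG6503 (r = 0.92) and CG8476 (r = 0.90), and for cry Spt-I (r = 0.93), ATP6AP2 (r = 0.92) and CG13601 (r = 0.91). The closest to vri was Sdic1 (r = 0.87), a sperm dynein gene of the D. melanogaster lineage, whose signal was 10.21 in D. melanogaster and 6.04 to 7.45 in the other species. Next came CG12689 (r = 0.83) and CG1421 (r = 0.82).

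Over the 48 deviations from group means the likest genes were different. They were Drp1, CG8138 and CG34324 for tim (r of 0.78 to 0.81), Dll, Mlc1 and CG14840 for per (0.71 to 0.73) and CG11858, CG15126 and GAA1 for vri (0.67 to 0.76). They were Lamp1, CG33189 and Cyp6a13 for Clk (0.74 to 0.77), and CG13101, CG17199 and CG12259 for cry (0.65 to 0.77). No gene was among the 3 likest in both measures for the same member. Among the 4 other genes of the phase check, the best rank was that of Clk for vri, 719 of 10843, and the ranks of tim for per (7761) and per for tim (7649) lay in the lower part. These r are descriptions over arrays that share species, collection and array quality.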

How the data were processed

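Whole-male RNA of 7 species was measured on 48 arrays. The intensity values deposited by the authors are MAS5 signals per probe set, scaled so that the mean of each array after trimming 2% at each end was 500. The study describes a Loess step and a mask for probes that differ from D. yakuba, but all 14010 probe sets of the array are in the deposited table, which is thus unmasked, and whether Loess was applied is not stated. Mismatched probes can shift the signal of species other than D. melanogaster down or up, and the authors describe an upward tendency where such probes are kept. The number of arrays limits the precision. The authors describe the 3 arrays of a group as independent samples, but all come from the same line or cross except in D. melanogaster.

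Values below 1 (31 values) were set to 1, log2 was taken and arrays were quantile normalised. Gene symbols came from the platform annotation (1 symbol for 12444 probe sets, several for 327, none for 1239). Each gene was represented by its brightest probe set, and 44 control probe sets were dropped. Groups were compared with limma 3.58.1 (lmFit, eBayes; R 4.3.3) over all 16 groups, weighting the 10 crosses of D. simulans equally, and Benjamini-Hochberg adjustment over 12367 features at 0.05. Correlations used 100000 permutations, two-sided, adjusted over 10 pairs (scipy 1.17.1). Scripts were tested on simulated data.

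The members, lists and tests were chosen with earlier results of these data known. Named were all 9 members, the 3 pathway genes with the smallest p in each F-test and the 3 genes most like each of per, tim, vri, Clk and cry, while slmb, tws and the marker genes were named after their values were seen. Alternatives were no or median normalisation, a floor of 16, a mean log2 signal of at least 6, the mean of all probe sets, another prior, only the groups compared, a replicate block and leaving out each array. Added after seeing the data were leaving out both arrays with female markers, each other probe set of tim, the 5 later species alone and, for called pairs of species, each array left out. No genome coordinates were used here.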

Additional observations from a re-analysis of the deposited data

How the results depend on the processing

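Of the 7 counts of clock genes and the count of pairs, those for D. santomea against D. yakuba, the crosses and the pairs were 0 under every alternative run. The count of 9 among the 7 species became 4 over the 5 later species. The 5 between the yakuba complex and D. sechellia with D. mauritiana became 3 when only those groups were fitted, with fewer arrays and only those species behind the spread. The main fit shares 1 spread over 16 groups, 10 of them D. simulans crosses. The SD of Clk was 2.15 in D. teissieri, 1.37 in D. santomea and 0.64 in D. yakuba, against a pooled 0.74. That of tim was 1.79, 0.27 and 1.39 in the same order, against 0.73. For Pdp1 the SD was 0.50, 0.26 and 1.21, against 0.45. Over all features the lowest r between replicate arrays was 0.791 in D. teissieri, 0.701 in D. santomea and 0.659 in D. yakuba. It was 0.777 in D. simulans cross 99x105 and 0.814 to 0.923 in the other groups. Where a group varies more than the shared spread, the adjusted p of its comparisons can be too small, which was not tested. The 2 for D. teissieri became 1 with each array centred on its median, with a floor of 16, with the mean of all probe sets, with another prior and without both arrays of high female markers, and 0 with only the groups compared. Leaving out 1 array gave 8 to 9 among species, 2 to 4 for D. simulans against D. melanogaster, 4 to 5 for the yakuba complex, 0 to 2 for D. teissieri, and 0 to 1 for D. sechellia against D. mauritiana. The 8 came without D. melanogaster replicate 1 (Pdf, adjusted p = 0.0593, limma). Of the values for single genes and pairs of species, 24 under other alternatives and 132 with 1 array left out kept their direction but lost the call.

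For tim, the difference of D. simulans from D. melanogaster became −0.22 by probe set 151485_s_at and 0.74 with the mean of all probe sets (adjusted p = 0.408, limma), and that of the yakuba complex became 0.54 by probe set 151484_i_at (adjusted p = 0.717) and −0.86 with the mean (adjusted p = 0.174). The cause was not tested.

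Among pairs, r changed sign for tim and Clk (−0.018 without normalisation, −0.0237 with median centring, −0.077 with the mean of all probe sets) and Clk and cry (−0.17, −0.14 and, over D. simulans arrays alone, −0.0804). Over D. simulans arrays alone it also did for per and Clk (0.0134), tim and vri (−0.28), vri and Clk (−0.0127) and vri and cry (0.39). Leaving out 1 array gave r of −0.31 to 0.17 for per and tim, −0.28 to 0.0627 for per and vri, −0.0945 to 0.24 for tim and vri, −0.30 to 0.16 for tim and Clk, −0.12 to 0.45 for vri and Clk, −0.28 to 0.045 for vri and cry, and −0.26 to 0.30 for Clk and cry. The cause was not tested.

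The labels do not say whether arrays of the same replicate number shared animals or days. Arrays of the same number did not deviate together (mean r −0.001 against 0 for other numbers, 15 of 48 arrays closest to their own number). With a replicate block the counts were 9, 0, 3, 5, 2, 0 and 0 in the order of 7 species, crosses, D. simulans, yakuba complex, D. teissieri, D. santomea and D. sechellia, the same as without it.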
